A study of Mus musculus with 6 samples.

Results

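Potassium channel genes were examined in pancreatic islets of mice whose β cells lacked Sel1L. The set comprised every gene with a Kcn symbol of a channel or channel subunit, together with Abcc8, which encodes SUR1, the sulfonylurea receptor of the ATP-sensitive potassium channel. By symbol alone, 95 probe sets with a single gene name were selected, standing for 88 of the 22180 genes tested. Another 4 probe sets named a channel gene beside another gene and were left out. The transcripts Kcnq1ot1 and Kcnd3os carry such symbols but do not code for protein, and they were kept apart.

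The arrays held islet RNA from mice aged 5 weeks on the C57BL/6J background, 3 per genotype. The wildtype arrays came from littermates with floxed alleles (Sel1L f/f), and the Sel1L-deficient arrays from Sel1L f/f mice that also carried Ins1Cre, a Cre gene knocked into the insulin 1 locus and active in β cells. The controls carried no Cre, so an effect of Cre and of the deletion cannot be told apart. Islets were hand-picked and kept overnight in culture, and they contain α, δ and PP cells, vessels and other cells that kept Sel1l. How many animals each array pooled is not given in the sources used here, so p-values reflect only how far these samples varied.

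In a β cell, metabolism of glucose raises ATP, which closes ATP-sensitive potassium (KATP) channels built from Kir6.2 and SUR1. The membrane then depolarises, calcium channels open and insulin is released. Voltage-gated and calcium-activated potassium channels repolarise the membrane after each action potential, and two-pore and G-protein-gated channels contribute to its resting potential.

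Values are log2 RMA summaries as deposited, and differences are Sel1L-deficient minus wildtype on that scale. Levels of different genes are not compared, since probes differ in brightness. The array medians lay between 3.08 and 3.16. A gene whose mean over the 6 arrays was above the highest of them is called measured above the median here, which 39 of the 88 channel genes were. The other 49 were not. Background was not estimated, so whether their signal exceeded it is not known. Nearest to the highest array median lay Kcnk2 (3.18) and Kcnk4 (3.20) above it and Kcna6 (3.13) and Kcnab2 (3.12) below it.

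Sel1l was 7.65 to 7.73 on the Sel1L-deficient arrays and 8.46 to 8.76 on the wildtype arrays. All samples are labelled female, but replicate 3 of each genotype read 2.93 and 3.08 for Xist and 5.39 to 7.31 for the Y-linked genes Eif2s3y, Kdm5d and Uty. The other 4 arrays read 9.93 to 10.4 for Xist and 1.20 to 2.07 for those genes. Each genotype thus held 1 array that went against its label. Genes past the threshold, and some whose differences moved without them, are also given for the 4 arrays with high Xist.

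One channel gene passed the test. Kcnj4, which encodes the strong inward rectifier Kir2.3, rose by 0.91 on the log2 scale in Sel1L-deficient islets. Its wildtype values lay below the highest array median. Of the 88 channel genes, 1 rose and 0 fell (limma, Benjamini-Hochberg adjusted p under 0.05 over all 22180 genes). Over all genes 0.0902% rose and 0.153% fell, 0.243% in either direction. At an unadjusted p under 0.05, 5 channel genes were higher and 6 were lower, against 4.45% and 5.04% of all genes. The 11 were 12.5% of the channel genes, beside 9.48% of all genes.

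In 12 channel genes the genotypes did not overlap, with 6 higher and 6 lower on all Sel1L-deficient arrays, against 7.22% and 7.84% of all genes. The 12 were 13.6% of the set, near the 15.1% found over all genes. Among channel genes measured above the median, 7 of 39 (17.9%) did not overlap, 6 higher and 1 lower. Of all 11913 genes at that level 19.3% did not overlap, 982 higher and 1312 lower. At an unadjusted p under 0.05 there were also 7 of 39, beside 12.9%. Kcnj4 is counted among these 7 and passed that limit only through the Sel1L-deficient arrays.

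The median difference was 0.01 over the 88 channel genes and 0.00 over all genes. For channel genes measured above the median it was -0.02, as it was for all genes at that level. Of the 39, the 95% interval lay within 1 log2 unit of 0, a factor of 2, in all but Kcnj4 and Kcnh1. It lay within 0.5 in 16.

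**Figure D1:**
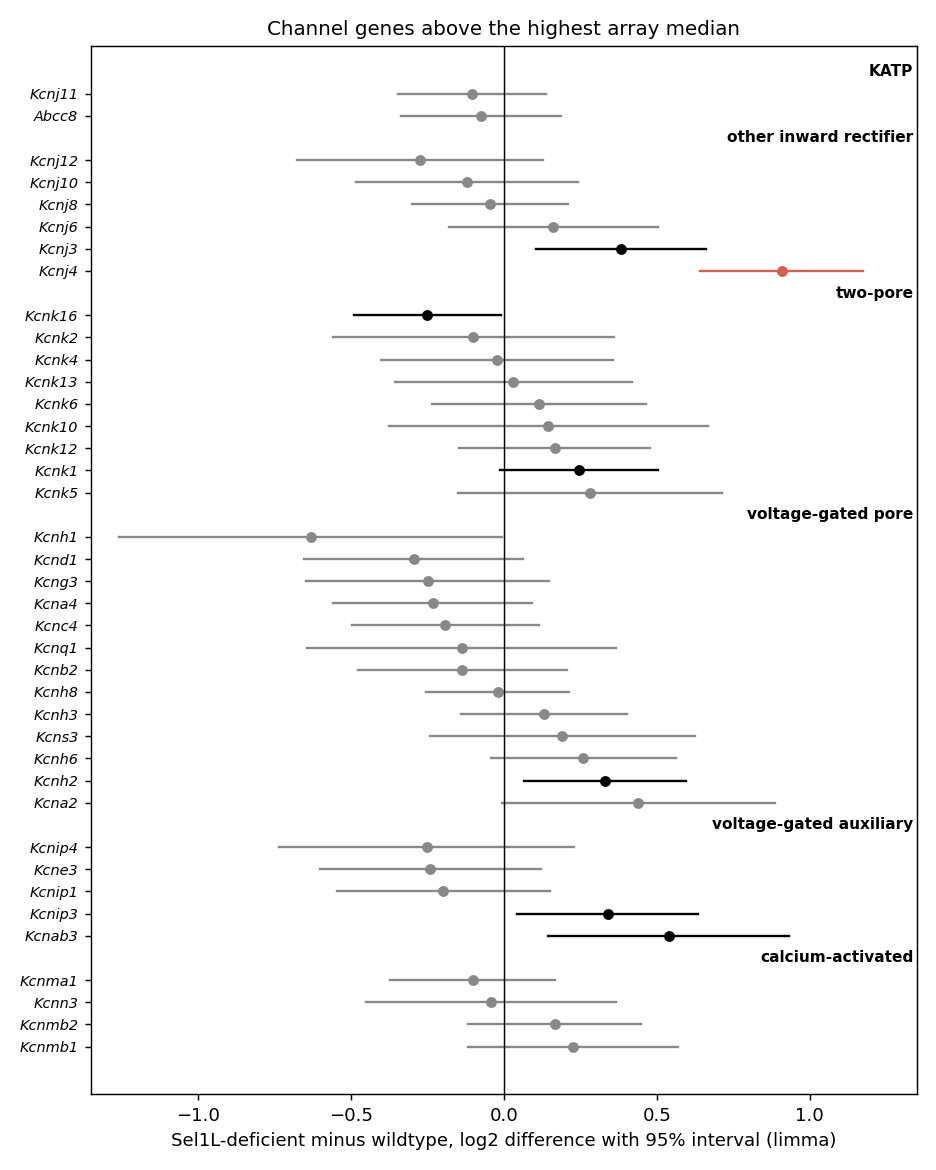
Sel1L-deficient minus wildtype log2 difference (horizontal axis) for the 39 channel genes measured above the median, by class, with the 95% interval from limma. Red marks the gene past the threshold, black the others whose groups did not overlap, and grey the rest. Only Kcnj4, at 0.91, passed the threshold.

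Neither KATP channel gene of the β cell passed the threshold. Abcc8 read 10.15, 10.34 and 10.46 on the wildtype arrays and 10.19, 10.24 and 10.30 on the Sel1L-deficient arrays. All 3 Sel1L-deficient values lay inside the wildtype range. The difference was -0.07 ± 0.11 (SE, n = 3 each) with a 95% interval of -0.34 to 0.19 (limma adjusted p = 0.892). Leaving out an array gave -0.16 to -0.0024 for Abcc8, the latter without wildtype replicate 3.

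Kcnj11, the gene of the Kir6.2 pore, read 6.11, 6.24 and 6.34 in wildtype and 6.15, 6.05 and 6.17 in Sel1L-deficient islets. The ranges overlapped, with 1 Sel1L-deficient array below all wildtype arrays. The difference was -0.10 ± 0.11 (SE, n = 3 each), its interval -0.35 to 0.14 and its limma adjusted p = 0.828. Both intervals stopped short of a fall by a factor of 2 but included one of 0.3 on the log2 scale. They apply to the deposited values of whole islets, which RMA can compress, and not to β cells alone. Abcc8 and Kcnj11 are next to each other in the RefSeq order of protein-coding genes.

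Kcnj8 encodes Kir6.1 and Abcc9 encodes SUR2, the pair that forms the KATP channel of vascular muscle and pericytes. Kcnj8 read 3.85, 3.85 and 3.84 in wildtype and 3.98, 3.69 and 3.74 in Sel1L-deficient islets, a difference of -0.05 with an interval of -0.30 to 0.21. Abcc9 differed by 0.15 (limma adjusted p = 0.879), with the highest value, 5.21, on Sel1L-deficient replicate 1 and 4.30 to 4.60 on the other arrays. Neither passed the threshold.

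**Figure D2:**
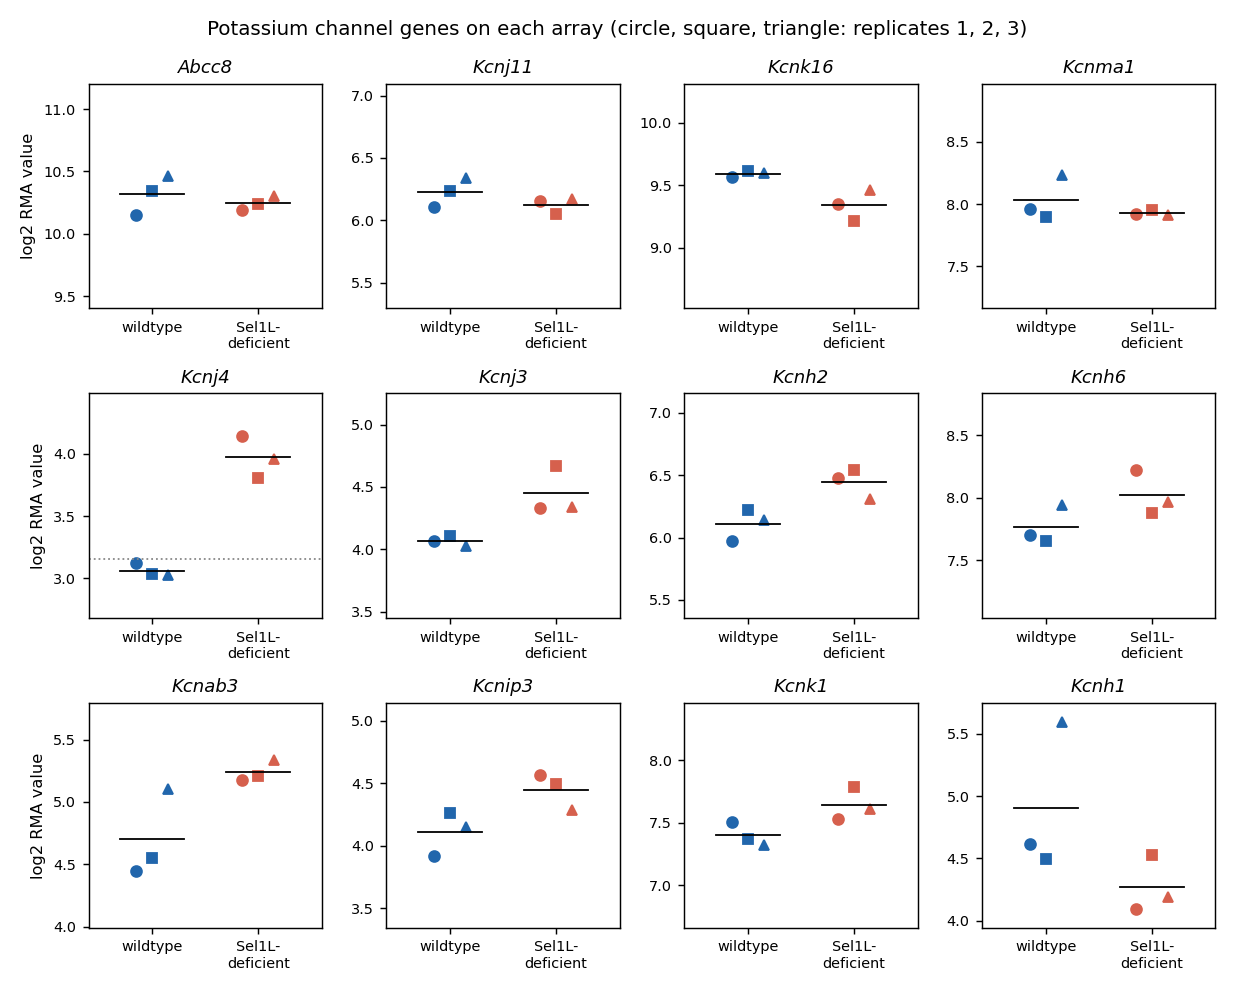
Log2 RMA values (vertical axes, each spanning 1.8 log2 units) of 12 channel genes on the 6 arrays. Circles, squares and triangles are replicates 1, 2 and 3, and lines are group means. The dotted line in the Kcnj4 panel is the highest array median, 3.16. The Kcnj4 groups are separate, with all wildtype values at or under 3.12, while those of Abcc8 and Kcnj11 overlap.

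Kcnj4 read 3.12, 3.03 and 3.02 in wildtype and 4.14, 3.81 and 3.96 in Sel1L-deficient islets. The lowest Sel1L-deficient value lay above the highest wildtype value, and the spread was 0.05 and 0.17 (SD, n = 3 each). The difference was 0.91 ± 0.12 (SE), its interval 0.64 to 1.18 and its limma adjusted p = 0.033. All 3 wildtype values lay below the highest array median, where signal was not told apart from background, so no fold is given.

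The rise of Kcnj4 kept its size when arrays were left out, but not its place past the threshold. Leaving out each array in turn gave 0.82 to 0.99, with limma adjusted p from 0.0843 to 0.145. On the 4 arrays with high Xist it differed by 0.89 (limma adjusted p = 0.236). With a covariate for Xist its limma adjusted p was 0.0443, and with the replicate number as a block 0.0529. Sel1l itself, at -0.90, also lost its call without any one of the 6 arrays (limma adjusted p from 0.0829 to 0.14), on the 4 arrays (-0.82, limma adjusted p = 0.196) and with the block (limma adjusted p = 0.0559).

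The other inward rectifiers did not pass the threshold. Kcnj3 encodes GIRK1, a subunit of channels opened by G-protein-coupled receptors. It read 4.06, 4.10 and 4.03 in wildtype and 4.33, 4.67 and 4.34 in Sel1L-deficient islets. The groups did not overlap, but the difference of 0.38 ± 0.12 (SE) had a limma adjusted p of 0.366. A dimmer probe set of Kcnj3 differed by -0.10, and the mean of the pair differed by 0.14.

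The partners of GIRK1 showed no shared direction. Kcnj6, which encodes GIRK2, differed by 0.16 with an interval of -0.18 to 0.50, and by 0.33 on the 4 arrays with high Xist. Kcnj5, for GIRK4, and Kcnj9, for GIRK3, differed by 0.13 and -0.23 at means of 1.86 and 1.66, below the array medians. Kcnj12, which encodes Kir2.2, a close relative of Kir2.3, differed by -0.27 with an interval of -0.68 to 0.13. Kcnj2, for Kir2.1, differed by -0.06 and Kcnj14, for Kir2.4, by 0.39, neither measured above the median. Over the 13 inward rectifiers other than Kir6.2, 1 rose and 0 fell (2 higher and 0 lower at an unadjusted p under 0.05), with a median difference of -0.04. The class median was 0.07 without wildtype replicate 1 and 0.06 over its 6 members measured above the median.

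Two-pore channels carry the background potassium current. Kcnk16 encodes TALK-1, a channel of islet cells that limits calcium entry in β cells. It read 9.56, 9.61 and 9.60 in wildtype and 9.35, 9.22 and 9.46 in Sel1L-deficient islets. Every Sel1L-deficient value was below every wildtype value, by a small margin. The difference was -0.25 ± 0.10 (SE, n = 3 each) with an interval of -0.49 to -0.01, and it did not pass the threshold (limma adjusted p = 0.5). Leaving out an array gave -0.31 to -0.19 for Kcnk16.

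Kcnk1, the gene of TWIK-1, lay the other way. Its values were 7.50, 7.37 and 7.33 in wildtype and 7.53, 7.79 and 7.61 in Sel1L-deficient islets. The groups did not overlap but came close, at 7.50 and 7.53, and the difference was 0.25 ± 0.11 (SE, limma adjusted p = 0.55). Kcnk5, for TASK-2, differed by 0.28 with overlapping groups and an interval of -0.15 to 0.71. On the 4 arrays with high Xist that was 0.47. Kcnk12, for THIK-2, differed by 0.17. The TREK and TRAAK channels, which respond to stretch and lipids, differed by -0.10 (Kcnk2), 0.15 (Kcnk10) and -0.02 (Kcnk4).

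Of the 13 two-pore genes, 0 passed the threshold (0 higher and 1 lower at an unadjusted p under 0.05), 10 had differences above 0, and the median was 0.11. Of those 10, 6 were measured above the median. Over all 22180 genes, 11114 had differences above 0. Kcnk5 and Kcnk16 adjoin each other in the RefSeq gene order and had differences of opposite sign.

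Voltage-gated channels made up the largest class, with 36 pore genes, 13 of them measured above the median. None passed the threshold (1 higher and 4 lower at an unadjusted p under 0.05), and the median difference was 0.01, or -0.14 among the 13. Kcnb2, the gene of the delayed rectifier Kv2.2, read 5.66, 5.35 and 5.34 in wildtype and 5.22, 5.15 and 5.58 in Sel1L-deficient islets. The groups overlapped, and the difference was -0.14 with an interval of -0.48 to 0.21. It was -0.031 without wildtype replicate 1 and -0.32 on the 4 arrays with high Xist.

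Both erg-type genes measured above the median lay on the higher side. Kcnh2 encodes Kv11.1, and it read 5.97, 6.22 and 6.14 in wildtype and 6.48, 6.54 and 6.31 in Sel1L-deficient islets. The groups did not overlap, and the difference was 0.33 ± 0.12 (SE, limma adjusted p = 0.412). Kcnh6 encodes Kv11.2, an erg channel of islets, and it read 7.70, 7.65 and 7.94 in wildtype and 8.22, 7.88 and 7.97 in Sel1L-deficient islets. Here 1 wildtype array lay above 1 Sel1L-deficient array, and the difference was 0.26 ± 0.13 (SE, limma adjusted p = 0.604). The third erg gene, Kcnh7, had a mean of 2.44 and differed by 0.04.

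Kcnh1, which encodes the eag channel Kv10.1, had the largest negative difference of the set, and it rested on 1 array. It read 4.62, 4.50 and 5.59 in wildtype and 4.10, 4.53 and 4.19 in Sel1L-deficient islets. The high value belonged to wildtype replicate 3. The difference was -0.63 ± 0.27 (SE, limma adjusted p = 0.522). It was -0.29 without that array and -0.25 on the 4 arrays with high Xist.

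Among A-type channels, which inactivate fast, Kcna4 (Kv1.4) differed by -0.23 with an interval of -0.56 to 0.09, and by -0.40 on the 4 arrays with high Xist. Kcnd1 (Kv4.1) differed by -0.29 with -0.65 to 0.06, and Kcnc4 (Kv3.4) by -0.19 with -0.50 to 0.11. Kcnd2 (Kv4.2) and Kcnd3 (Kv4.3) differed by -0.28 and 0.05 at means of 2.87 and 2.67, below the array medians. Kcna2, for Kv1.2, differed by 0.44 with overlapping groups. Its lowest value, 3.06, was that of wildtype replicate 1, and without that array the difference was 0.24. Kcnq1, for Kv7.1, differed by -0.14, and Kcng3, for a silent subunit that joins Kv2 channels, by -0.25. Without wildtype replicate 1 Kcng3 differed by -0.050, and on the 4 arrays with high Xist by -0.38. None of these genes passed the threshold.

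Auxiliary subunits of voltage-gated channels had a median difference of -0.15 over 12 genes, with differences below 0 in 10 of them. Of all 22180 genes, 11066 had differences below 0. Without Sel1L-deficient replicate 1 the median was -0.075. None passed the threshold (2 higher and 1 lower at an unadjusted p under 0.05). Both positive differences and 3 of the negative ones belonged to genes measured above the median. The other 7 negative ones belonged to genes not measured above the median. Kcnab3 encodes a cytoplasmic β subunit of Kv1 channels, and it read 4.45, 4.55 and 5.10 in wildtype and 5.17, 5.21 and 5.34 in Sel1L-deficient islets. The groups did not overlap, although wildtype replicate 3 (5.10) came close to Sel1L-deficient replicate 1 (5.17).

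The Kcnab3 difference was 0.54 ± 0.17 (SE, limma adjusted p = 0.37). Leaving out an array gave 0.41 to 0.74, the latter without wildtype replicate 3. The dimmer probe set of Kcnab3 differed by -0.07, so the probe sets disagreed, and their mean differed by 0.24. Kcnab2, another Kv β subunit, differed by -0.42 from a wildtype mean of 3.33 to 2.91, the latter below the array medians (limma adjusted p = 0.421).

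KChIP proteins bind calcium and raise Kv4 channels at the cell surface. Kcnip3, whose product also acts as the transcriptional repressor DREAM, read 3.92, 4.26 and 4.15 in wildtype and 4.56, 4.50 and 4.29 in Sel1L-deficient islets. The nearest values, 4.26 and 4.29, almost met, and the difference was 0.34 ± 0.13 (SE, limma adjusted p = 0.454). Kcnip1 and Kcnip4 differed by -0.20 and -0.25 with overlapping groups. Without wildtype replicate 3 they differed by -0.046 and -0.059, and on the 4 arrays with high Xist by -0.073 and 0.058. The 5 KCNE genes, for small single-span subunits, had differences of -0.31 to -0.02, of which only Kcne3, at -0.24, was measured above the median. Kcne3 differed by -0.46 on the 4 arrays with high Xist.

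Calcium-activated channels had 0 of 9 genes past the threshold, 0 at an unadjusted p under 0.05, and 0 with separate groups. Kcnma1, the pore of the large-conductance BK channel, read 7.96, 7.89 and 8.24 in wildtype and 7.92, 7.95 and 7.92 in Sel1L-deficient islets. The Sel1L-deficient values lay within the wildtype range. The difference was -0.10 ± 0.12 (SE) with an interval of -0.37 to 0.17, and 0.00 without wildtype replicate 3. Its β subunits Kcnmb2 and Kcnmb1 differed by 0.17 and 0.23, with intervals of -0.12 to 0.45 and -0.12 to 0.57. Kcnmb2 differed by 0.035 on the 4 arrays with high Xist.

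Small-conductance SK channels, opened by calcium through calmodulin, were represented above the median by Kcnn3, which differed by -0.04 with an interval of -0.45 to 0.37. That value was 0.15 without wildtype replicate 3, which read 7.38. Kcnn1 and Kcnn4, the latter for the intermediate-conductance IK channel, differed by -0.19 and 0.08 below the array medians. The median over the 9 was 0.05. The sodium-activated genes Kcnt1 and Kcnt2 and the Slo3 gene Kcnu1 of sperm all lay below the array medians, with differences of 0.06 to 0.16.

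**Figure D3:**
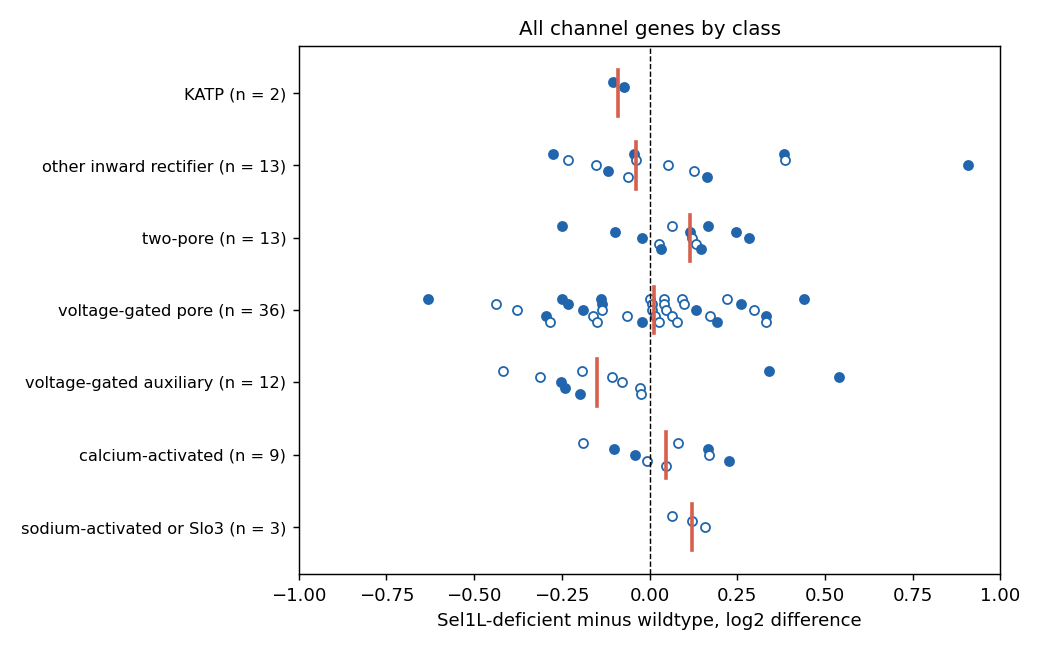
Sel1L-deficient minus wildtype log2 difference (horizontal axis) of all 88 channel genes, by class. Filled circles are genes measured above the median, open circles the other 49, red bars class medians, and the dashed line the median of all genes, 0.00. The medians run from -0.15 for auxiliary subunits to 0.12 for the sodium-activated and Slo3 genes.

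The 49 channel genes not measured above the median had differences of -0.44 to 0.39. Groups did not overlap in 5 of them, all on the lower side. These 5 were Kcng4 (-0.44), Kcnab2 (-0.42), Kcna1 (-0.38), Kcnd2 (-0.28) and Kcnj9 (-0.23), or 10.2% of the 49. Of all 10267 genes at that level, 10.2% did not overlap in either direction, 620 higher and 427 lower. The noncoding transcripts Kcnd3os and Kcnq1ot1 differed by 0.10 and 0.06, with overlapping groups.

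Genes that stand beside the channels were taken from lists of partner proteins and of glucose entry, calcium, sodium and other cation channels. Of 13 partner proteins measured, 0 rose and 0 fell (1 higher and 0 lower at an unadjusted p under 0.05), and the median was -0.01. Dpp10, a partner of Kv4 channels, read 6.43, 6.27 and 6.47 in wildtype and 6.82, 6.70 and 7.25 in Sel1L-deficient islets, with no overlap. The difference was 0.53 (limma adjusted p = 0.324). Dpp6, its relative, differed by 0.11, and Ank2, an ankyrin that anchors Kir6.2, by -0.03. Without Sel1L-deficient replicate 3 Ank2 differed by 0.11.

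Of 18 measured genes of glucose entry and of calcium, sodium and other cation channels, 1 fell and 0 rose, with a median of 0.06. It was Slc2a2, the glucose transporter upstream of KATP closure, which read 10.47, 10.15 and 10.45 in wildtype and 9.05, 8.66 and 9.22 in Sel1L-deficient islets. The difference was -1.38 (limma adjusted p = 0.0265). Leaving out an array gave -1.50 to -1.22, and Slc2a2 passed only without Sel1L-deficient replicate 3 (limma adjusted p from 0.0444 to 0.135). On the 4 arrays with high Xist it differed by -1.45 (limma adjusted p = 0.152). The L-type calcium channel genes Cacna1c and Cacna1d, which open on KATP closure, differed by -0.09 and -0.07. Trpm5, a calcium-activated cation channel, differed by -0.51 and the sodium channel gene Scn3a by 0.31, both with separate groups (limma adjusted p = 0.191 and 0.366).

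Among markers of islet cell types, Mafa and G6pc2 of β cells passed the threshold. In bulk islets fewer cells of a type and less RNA per cell cannot be told apart. All 7 β-cell markers measured lay lower on every Sel1L-deficient array, as did 7.84% of all genes, with a median of -0.56. Iapp and Slc30a8 among them differed by -0.09 and -0.07 (limma adjusted p = 0.843 and 0.871). Mafa, which drives insulin transcription, fell by 2.11 (limma adjusted p = 0.000681) and passed without any 1 array, but not on the 4 arrays with high Xist (limma adjusted p = 0.0527). G6pc2, a glucose-6-phosphatase of islets, fell by 0.91 (limma adjusted p = 0.0449) and lost its call without any 1 array and on those 4 (limma adjusted p from 0.081 to 0.208 and 0.196). The log2 of the summed level of the 7 markers was 13.30 to 13.48 in wildtype and 13.00 to 13.05 in Sel1L-deficient islets. Such a sum rests mostly on the brightest probe sets. The hormone genes Gcg, Sst and Ppy of α, δ and PP cells differed by 0.03, -0.03 and 0.15. Their means were 12.6, 12.5 and 12.2, near the highest deposited value, 13.0. Whether their probe sets, or those of Iapp and Slc30a8 (means 11.7 and 11.1), could still register a change was not tested. No α, δ, PP, acinar, duct, leukocyte or Schwann marker passed.

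All 9 endothelial and all 10 mesenchymal markers had positive differences, with medians of 0.44 in both lists, and 0 passed the threshold. Their summed levels were 9.93 to 10.34 and 8.31 to 8.85 in wildtype and 10.46 to 10.66 and 8.91 to 9.18 in Sel1L-deficient islets. Groups did not overlap in 4 endothelial and 2 mesenchymal markers, all higher, beside 7.22% of all genes. All endothelial and mesenchymal markers but Lum had means above the array medians. The part of these cells in the difference of Kcnj4, or of any other channel gene, was not tested. Acinar markers had a summed level of 11.64 to 12.95 in wildtype and 10.90 to 12.82 in Sel1L-deficient islets, highest on replicate 3 of each genotype. Leukocyte and duct markers had medians of -0.04 and -0.12, with Cd3e and Cftr at 1.77 and 1.53, below the array medians.

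**Figure D4:**
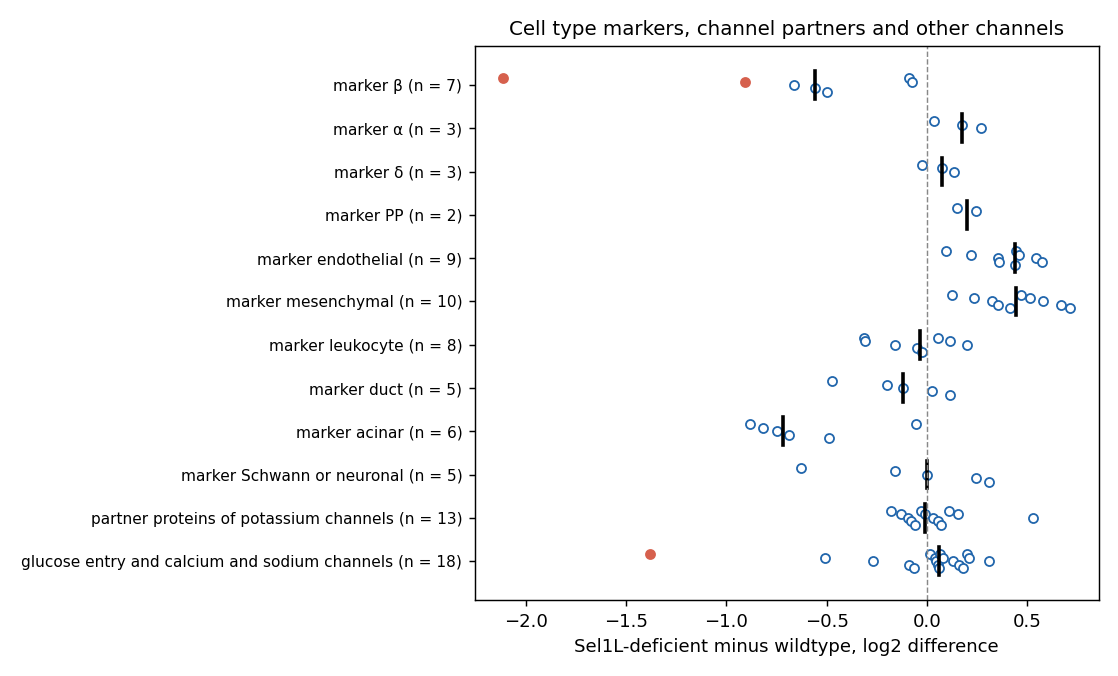
Sel1L-deficient minus wildtype log2 difference (horizontal axis) of cell type markers, channel partners and other channels. Circles are genes, red where they passed the threshold, and black bars are list medians. β-cell markers lie at or below -0.07, endothelial and mesenchymal markers at or above 0.10.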

How the data were processed

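The deposited log2 values were made by the authors with RMA, which the submitters' processing notes name and which corrects background, normalizes between arrays and sums up the probes of a set. The log base was taken as 2 from the range of 0.526 to 13.0. Version, filters and build are not given in the sources used here. RMA can compress large ratios, and the table carries no detection call.

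Symbols came from the platform annotation. It gave 1 symbol for 23521 of 41345 probe sets, and all 88 channel genes matched a RefSeq table (GRCm38.p6) by Entrez ID. Where a gene had several probe sets, the one brightest on average stood for it. Genotypes were compared by limma's two-sided moderated test (version 3.58.1, R 4.3.3; lmFit, then eBayes), with Benjamini-Hochberg adjustment over all 22180 genes and a threshold of 0.05. The script was tested on simulated data in which more genes were changed than were called here. Of simulated log2 differences, 33% of those of 0.5 and 81.2% of those of 1 passed the threshold. A gene that did not pass may thus still differ. The number of arrays limits the precision.

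The members and lists were chosen with earlier results of these data known. Named genes were Sel1l, the KATP genes, called members, the 3 with the highest mean in each class, the 8 largest differences each way among genes above the highest array median, 12 of 15 chosen islet channels that were measured, and the called or highest members of the partner and coupling lists. The others were named for their family or after their values were seen.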

Additional observations from a re-analysis of the deposited data

How the results depend on the processing

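Of the 32 channel genes named by rule, only Kcnj4 changed sides of the threshold in any of 16 alternatives, and 7 changed sign in at least 1. Kcnj4 passed in 7 of the 10 that did not leave out a single array, and in 0 of the 6 that did. Among these 7, the fit limited to genes above the highest array median admitted Kcnj4 only through its Sel1L-deficient values. Averaging probe sets could not change its difference, because Kcnj4 has only 1. The count of channel genes called was 0 with every probe set fitted on its own, on the 4 arrays with high Xist, with the replicate block, and without any 1 array. The count over all genes, 54, was 3 with every probe set fitted on its own, 133 with limma's trended robust prior, 1 on the 4 arrays with high Xist, and 4 to 29 when 1 array was left out.

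Replicate numbers were shared between genotypes. Same-numbered arrays correlated in their deviations by 0.10, 0.07 and 0.21 across genes, and each array correlated best with its own number. These values do not settle whether the arrays were paired. The main fit took no pairing, and the call of Kcnj4 depended on that choice. With the replicate block 36 genes passed, 28 of them shared, and Kcnj4 had a limma adjusted p of 0.0529. The channel median, 0.01, was -0.022 among genes above the highest array median, -0.045 on the 4 arrays with high Xist, and -0.012 to 0.033 when 1 array was left out.

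On the 4 arrays with high Xist the sign was reversed for Kcnip4 (0.058), Kcnj5 (-0.029), Kcnma1 (0.0086), Kcnn3 (0.037) and Ank2 (0.11). Leaving out 1 array gave -0.016 to 0.13 for Kcnd3, -0.078 to 0.33 for Kcnj5, -0.13 to 0.013 for Kcnj8, -0.17 to 0.0016 for Kcnma1, -0.17 to 0.15 for Kcnn3, -0.33 to 0.074 for Kcnq1 and -0.097 to 0.11 for Ank2. The cause was not tested. Kcnd3, Kcnj5, Kcnn1 and Kcnn4 have no value under the filter on low genes.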
